A study of Mus musculus with 1094 samples.

Results

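Hmga1, Hmga2, Lin28a, Lin28b, Igf2bp1, Igf2bp2, Igf2bp3, Crabp1 and Crabp2 are genes known for high levels in young embryonic stem and progenitor cells. These 9 genes were taken by symbol from the 23078 genes measured in single cells of the developing mouse dorsal cortex. Their decline was followed in neural stem cells (NSC), basal progenitors (BP, the neuron-producing daughters of stem cells) and newborn neurons (NBN). Every cell came from wild-type C57Bl/6 mice, labelled female, that carried a green fluorescent reporter. NSC were sorted from Hes5::GFP mice, whose reporter follows a Notch target gene, and BP and NBN from Tbr2::GFP mice, whose reporter follows a gene of intermediate progenitors. Single cells were captured on a Fluidigm C1 instrument and sequenced. A library here means all cells of 1 population at 1 stage. There were 8 NSC libraries (E10.5, E11.5, E13.5, E15.5, E17.5, E18.5, P0 and P1; 538 cells), 5 BP libraries (E12.5, E14.5, E16.5, E18.5 and P0; 344 cells) and 4 NBN libraries (E16.5, E18.5, P1 and P3; 212 cells). E marks embryonic and P postnatal days. Labels name no animals, and 1 library stands for a stage, so no stage has a replicate.

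Hmga1 and Hmga2 encode small chromatin proteins that bind the minor groove of AT-rich DNA, and Hmga2 is known to support self-renewal of young neural stem cells. Lin28a and Lin28b encode RNA-binding proteins that block the maturation of let-7, a microRNA family that represses messages bearing its seed match. Igf2bp1, Igf2bp2 and Igf2bp3 encode fetal RNA-binding proteins that stabilise and localise messages. Crabp1 and Crabp2 encode carriers of retinoic acid inside the cell, and Crabp2 is known to pass it to nuclear receptors. Levels are in TPM, transcript abundance scaled by transcript length and by the total of each cell, averaged over the cells of a library, so that genes can be compared with each other.

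The sequence that most of the 9 genes share is a match to the let-7 seed (bases 2 to 8 of the microRNA), shown here because Lin28 proteins and several messages of the set meet in the let-7 pathway. In the RefSeq table (GRCm38.p6), 11 mature mouse microRNAs from 13 loci carry this seed, among them let-7a, let-7g and miR-98, with the seed in capitals:
mmu-let-7a-5p: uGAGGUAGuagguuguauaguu
mmu-let-7g-5p: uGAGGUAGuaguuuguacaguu
mmu-miR-98-5p: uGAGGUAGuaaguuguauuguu
The levels of these microRNAs were not analysed here. In the longest annotated 3′ UTR of each gene (GENCODE M21, GRCm38), the complement CTACCTC was searched on the transcribed strand. Hmga2, Lin28b and Igf2bp1 held 4 matches each, Lin28a held 2, Hmga1, Igf2bp2 and Igf2bp3 held 1 each, and Crabp1 and Crabp2 held 0. One match per gene is printed 5′ to 3′ along the message, with the match in capitals:
Hmga1, chr17:27563278-27563299, plus strand: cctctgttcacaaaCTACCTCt
Hmga2, chr10:120364224-120364245, minus strand: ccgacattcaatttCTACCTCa
Lin28a, chr4:134005189-134005210, minus strand: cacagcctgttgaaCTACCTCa
Lin28b, chr10:45381022-45381043, minus strand: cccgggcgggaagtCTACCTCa
Igf2bp1, chr11:95961778-95961799, minus strand: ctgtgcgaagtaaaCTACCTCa
Igf2bp2, chr16:22059473-22059494, minus strand: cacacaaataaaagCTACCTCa
Igf2bp3, chr6:49086787-49086808, minus strand: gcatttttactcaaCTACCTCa
An A follows the match, which makes the 8-base form, in every printed site but that of Hmga1. Not all matches had this form: it was 1 of 4 in Hmga2, 1 of 4 in Lin28b, 3 of 4 in Igf2bp1 and 2 of 2 in Lin28a. Over all 20985 genes with an annotated 3′ UTR, 8.95% held a match. UTR length differs, so each gene was also set beside genes whose UTR was 0.8 to 1.25 times as long. Among them 0.124% had as many matches as Hmga2, 0.297% as Lin28b, 0.333% as Igf2bp1 and 2.07% as Lin28a. For Hmga1, Igf2bp2 and Igf2bp3 these shares were 8.12%, 12.1% and 13.3%. The UTRs of Crabp1 (234 bases) and Crabp2 (339 bases) are short, and 1.66% and 2.84% of genes with UTRs of like length held any match. A match is a description of the letters, not evidence of a working site.

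Several libraries stood apart from their labels. A cell was given a stem cell profile when its mean log2(TPM + 1) over 14 radial glia genes exceeded that over 13 newborn neuron genes. This held for 84 of 88 NSC cells at E10.5, but for only 8 of the 86 cells of E15.5. The shares were 45.8% for E11.5, 47.1% for E13.5 and 28.9% for E17.5. In the NBN P3 library 29 of 40 cells had it. Cells with 3 or more markers of another cell type at 10 TPM or more were found in 16 of the 17 libraries. They were 40 of 59 cells at NSC E11.5 (37 with erythroid and 15 with interneuron markers) and 36 of 40 at NBN P3 (18 microglial and 14 meningeal). NSC P0 had 15 of 48, all with interneuron markers, and NSC E10.5 had 25 of 88, 22 of them erythroid. NSC E17.5 had 17 of 76, of which 16 held interneuron markers, and BP E12.5 had 15 of 72, of which 13 held markers of Cajal-Retzius neurons. The newborn neuron genes summed to 1011 TPM at NBN P3, against 8507 to 11546 TPM in the other NBN libraries. Depth is not kept by TPM. The median number of genes per cell at 1 TPM or more ran from 3189 to 5764 over the 17 libraries.

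The 2 Hmga genes were among the most abundant of the set in the youngest stem cells. Hmga2 (GRCm38 chr10:120361275-120476469) had mean levels of 547 TPM at E10.5, 111 at E11.5, 102 at E13.5, 9.06 at E15.5, 2.71 at E17.5, 3.11 at E18.5, 16.4 at P0, then 3.51 at P1 in NSC. The first 3 libraries lay above 100 TPM and the 4 libraries from E17.5 on lay at or below 16.4 TPM, with no overlap. The P0 value came from 2 of 48 cells, 1 of which gave 85.7% of the sum. Without that cell the P0 mean was 2.40 TPM. The level stayed under 50% of its highest value from E11.5 and under 10% from E15.5. In limma fits of log2(mean TPM + 1) across all genes, Hmga2 fell by 0.64 ± 0.11 (SE) log2 units per day in NSC (n = 8 libraries, adjusted p = 0.00860).

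The share of NSC cells with Hmga2 at 1 TPM or more was lower at each later stage up to P0. It was 86 of 88 cells at E10.5 (97.7%, exact 95% interval 92.0 to 99.7%), 35 of 59 at E11.5 (59.3%, 45.7 to 71.9%), 29 of 68 at E13.5 (42.6%, 30.7 to 55.2%) and 15 of 86 at E15.5 (17.4%, 10.1 to 27.1%). At E17.5, E18.5, P0 and P1 it was 11.8%, 10.6%, 4.17% and 4.26%. These intervals cover counting error only, since cells of 1 library are not replicates. Among the cells with Hmga2, the mean was 560 TPM at E10.5, 188 at E11.5, 238 at E13.5, 51.7 at E15.5 and 22.7 at E17.5. Fewer cells held the transcript, and from E15.5 to E18.5 those that held it had lower levels than the cells of E10.5 to E13.5.

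Hmga2 had a higher mean in cells with a stem cell profile than in the other NSC cells of 5 libraries, though not all of it lay there. At E15.5 only 4 of the 15 cells with Hmga2 had the profile. At E11.5 these averaged 206 TPM and the other NSC cells 31.6 TPM, and at E13.5 the means were 209 and 6.04 TPM. At E15.5 they were 35.1 and 6.38 TPM, at E17.5 7.27 and 0.857 TPM, and at E18.5 4.10 TPM against 0 in all 16 other cells. The profile cells were higher in 5 of 5 libraries with at least 8 cells of either kind. The level in profile cells was 2.87 ± 0.63 log2 units above that in the other cells of the same library. This comparison was added after the values were seen, and it did not pass the limma test over all genes (adjusted p = 0.168; unadjusted p = 0.00244). No gene passed as higher in profile cells (0% of genes tested) and 6 passed as lower (0.0426%). Between 2 and 11 cells per library lay within 0.5 log2 units of the dividing line. In profile cells alone Hmga2 fell by 0.67 ± 0.10 per day (limma, adjusted p = 0.00240), while the slopes of Lin28b (-0.32, adjusted p = 0.173) and Crabp1 (-0.69, adjusted p = 0.0892) did not pass there.

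**Figure D1:**
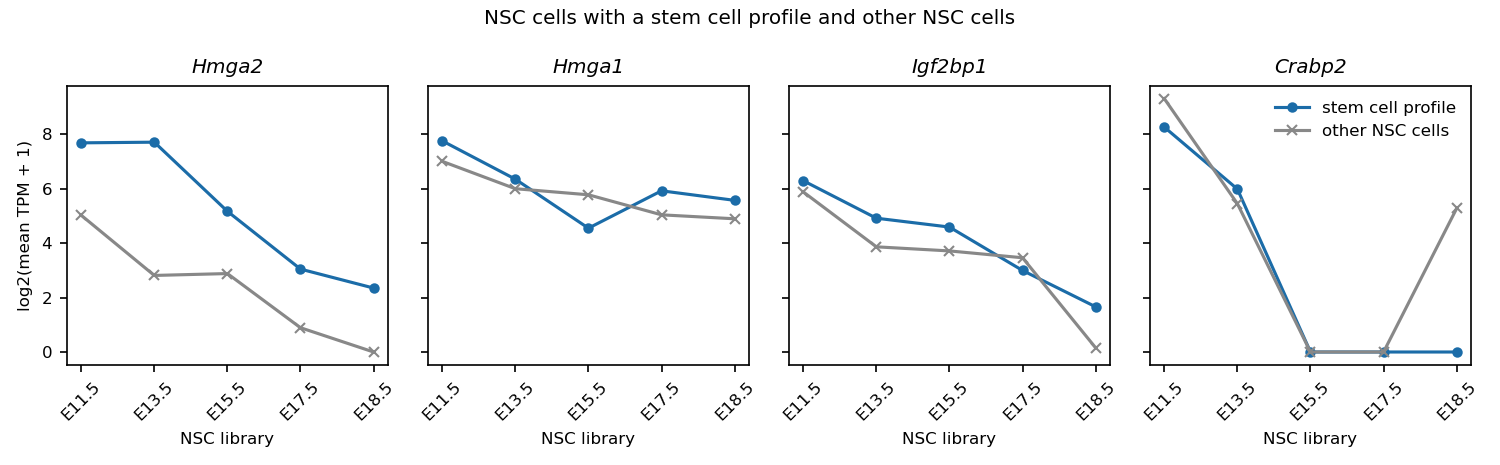
Mean level, as log2(mean TPM + 1), of Hmga2, Hmga1, Igf2bp1 and Crabp2 in NSC cells with a stem cell profile (circles) and in the other NSC cells (crosses), for the 5 libraries with at least 8 cells of either kind. Hmga2 is higher in profile cells at each of the 5 stages, and Crabp2 is higher in the other cells at E11.5.

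Hmga1 (chr17:27556497-27563674) declined more slowly and reached no such low level. Its NSC means were 446 TPM at E10.5, 168 at E11.5, 71.6 at E13.5, 51.1 at E15.5, 40.1 at E17.5, 42.4 at E18.5, 15.8 at P0, then 16.6 at P1. It stayed under 50% of the highest value from E11.5, as Hmga2 did, but under 10% only from E17.5. Hmga1 fell by 0.41 ± 0.07 log2 units per day in NSC (limma, n = 8 libraries, adjusted p = 0.0101). The share of NSC cells with Hmga1 was 97.7% at E10.5, 67.8% at E11.5, 54.4% at E13.5, 33.7% at E15.5, 26.3% at E17.5, 19.7% at E18.5, 37.5% at P0, then 21.3% at P1. At P0, 1 cell gave 58.8% of the sum. Cells that kept Hmga1 still averaged 131 to 215 TPM from E13.5 to E18.5.

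Neither Hmga gene had a slope in BP or NBN that passed. In BP, Hmga1 was 54.2 TPM at E12.5, 45.5 at E14.5, 40.8 at E16.5, 32.7 at E18.5 and 44.3 at P0 (slope -0.06 ± 0.13 per day). At P0 a single cell gave 59.0% of that value. Other summaries were lower in older BP: the mean with the extreme cells trimmed went from 38.5 TPM at E12.5 to 7.32 at P0, and the cells with Hmga1 were 45.8%, 57.8%, 24.7%, 17.7% and 19.7% of BP at the 5 stages. Hmga2 in BP was 15.9, 15.0, 1.52, 3.84 and 0.151 TPM at the same stages (slope -0.51 ± 0.20), and the share of BP cells with it went from 18.1% and 22.2% to 10.1%, 8.06% and 3.95%. Hmga1 differed between the slopes of BP and NSC by 0.34 ± 0.15 log2 units per day (95% interval 0.03 to 0.65), which did not pass over all genes (limma, adjusted p = 1.00; unadjusted p = 0.0338). Over all ages Hmga2 was 1.89 ± 0.62 log2 units lower in BP than in NSC, which did not pass (limma, adjusted p = 0.200). Against the NSC cells with a stem cell profile Hmga2 was lower by a difference of -2.56 and passed (limma, adjusted p = 0.00995). In that comparison 2.61% of all genes passed as lower, against 0.448% with all NSC cells. In NBN, Hmga2 was 11.2 TPM at E16.5 (14 of 63 cells), 5.97 at E18.5 (9 of 70), 0.599 at P1 and 0.531 at P3, each of the last from 1 cell. At E16.5, BP had Hmga2 at 1.52 TPM in 9 of 89 cells. The difference between NBN and BP over all ages, 1.46 ± 0.78, did not pass (limma, adjusted p = 0.595).

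Lin28a (chr4:134003330-134018841) was found almost only in the youngest stem cells. Its mean was 18.0 TPM at NSC E10.5, where 22 of 88 cells held it (25.0%, exact interval 16.4 to 35.4%). At NSC E11.5 it was in 0 of 59 cells, which allows a share of up to 5.08% when 3 cells are taken as the limit of a count of 0. Such a limit concerns cells in which the transcript was detected, not cells that express it. In every later library of the 3 populations the mean lay at or below 0.370 TPM. Lin28a reached a mean of 1 TPM in only 1 library, did not pass the filter on low values, and was not tested.

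Lin28b (chr10:45376620-45486395) was higher at first and also declined early. Its NSC means were 50.1 TPM at E10.5, 12.4 at E11.5, 2.02 at E13.5, 0.763 at E15.5, 0.852 at E17.5, 0.441 at E18.5, 0.460 at P0, then 0.241 at P1. It stayed under 10% of the highest value from E13.5, and from E11.5 with the extreme cells trimmed or in profile cells alone. With log2 values averaged over cells it was under 10% only at P1. On that scale 10% is not the same threshold as 10% of a TPM level. Lin28b fell by 0.46 ± 0.08 log2 units per day in NSC (limma, n = 8 libraries, adjusted p = 0.00843). At E11.5, 1 cell gave 69.7% of the sum, and profile cells averaged 1.35 TPM against 21.8 TPM in the rest. That cell counted in 2 groups with other markers. The 37 of 59 cells with erythroid markers gave 92.6% of the sum. The 15 cells with interneuron markers gave 70.3%, with 1 of them at 1 TPM or more. The part of the cells with such markers at E11.5 in the slope was not tested on its own. With the cells holding markers of any other type left out of every library, the slope was -0.37 ± 0.09 and did not pass (limma, adjusted p = 0.0602). In BP, Lin28b was 3.24 TPM at E12.5 and between 0.800 and 1.09 TPM at the other 4 stages, and in NBN it was 1.68 TPM at E16.5 and below 1 TPM later.

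**Figure D2:**
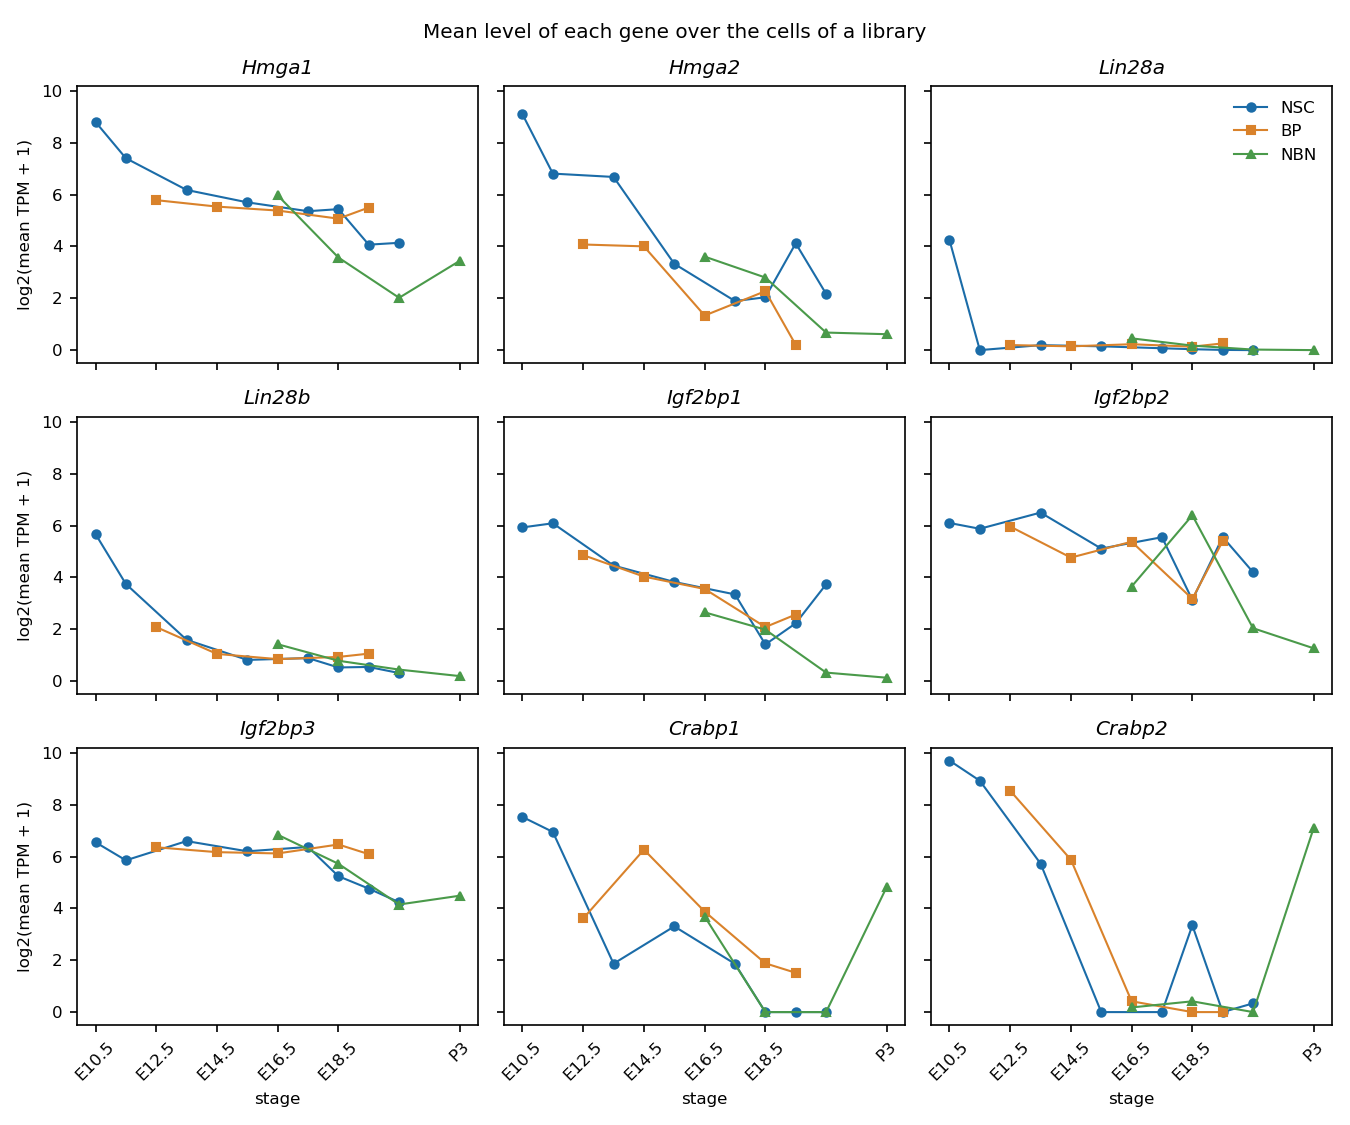
Mean level of each of the 9 genes over the cells of a library, as log2(mean TPM + 1), against stage in NSC (circles), BP (squares) and NBN (triangles); 1 point is 1 library. Hmga2, Lin28a, Lin28b and Crabp2 are highest at NSC E10.5, Igf2bp3 stays near 6 in BP, and Crabp2 is high again at NBN P3.

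The 3 Igf2bp genes differed in when they declined. Igf2bp1 (chr11:95957163-96005940) was 60.0 TPM at E10.5 and 67.1 at E11.5, then 21.0 at E13.5, 13.2 at E15.5, 9.16 at E17.5, 1.67 at E18.5, 3.69 at P0, then 12.3 at P1 in NSC. It was under 50% of its highest value from E13.5. The P1 value came from 4 of 47 cells, 1 of which gave 51.0% of the sum. Igf2bp1 fell by 0.37 ± 0.09 log2 units per day in NSC (limma, n = 8 libraries, adjusted p = 0.0438). The share of NSC cells with it was 95.5% at E10.5, 76.3% at E11.5, 61.8% at E13.5, 36.0% at E15.5, 23.7% at E17.5, 7.58% at E18.5, 14.6% at P0, then 8.51% at P1. In BP it took a like course, 28.1, 15.4, 10.8, 3.25 and 4.93 TPM from E12.5 to P0, with a slope of -0.37 ± 0.15 that did not pass (limma, adjusted p = 1.00). At E18.5 the means in NSC, BP and NBN were 1.67, 3.25 and 2.96 TPM, and at P1 NBN had 0.256 TPM from 1 cell.

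Igf2bp2 (chr16:22059009-22163299) and Igf2bp3 (chr6:49085223-49214957) stayed high longer. Igf2bp2 was 67.7, 57.8, 89.7, 33.6, 45.9, 7.77, 46.1 and 17.4 TPM over the 8 NSC stages, with no steady order after E13.5. At P0, 1 cell gave 86.6% of the sum, and without it the mean was 6.30 TPM. The median cell had 29.1 TPM at E10.5, 16.0 at E11.5, 18.45 at E13.5 and between 0.620 and 4.48 TPM later. The slope of its mean, -0.19 ± 0.11, did not pass in NSC (limma, adjusted p = 0.533). Averaging log2 values over cells gives single cells less weight. Igf2bp2 then fell by 0.35 per day and passed (limma, adjusted p = 0.00212), but so did 13.9% of all genes. With the extreme cells trimmed its slope was -0.48 and passed (limma, adjusted p = 0.0264), and 1.44% of all genes fell in that setting. Igf2bp2 stayed in most BP cells at each stage (76.4 to 100%) and in 95.2% and 97.1% of NBN cells at E16.5 and E18.5, then in 43.6% and 45.0% at P1 and P3. At E18.5, 22 of 66 NSC cells held it (33.3%, exact interval 22.2 to 46.0%), all 62 BP cells and 68 of 70 NBN cells. Detection depends on depth, and the median number of genes per cell at E18.5 was 3428 in NSC, 4926.5 in BP and 4635.5 in NBN.

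Igf2bp3 was the member found in most cells. It was at 1 TPM or more in 91.0 to 100% of cells of every library. Its NSC means were 93.0, 56.9, 95.9, 72.7, 81.8, 36.9, 26.2 and 17.9 TPM from E10.5 to P1. They varied between 56.9 and 95.9 TPM without a steady order to E17.5 and were at or below 36.9 TPM from E18.5 on. The slope was -0.18 ± 0.06 and did not pass (limma, adjusted p = 0.161). In BP it stayed between 67.3 and 87.5 TPM (slope -0.01 ± 0.10), and in NBN it was 114, 51.8, 16.8 and 21.5 TPM from E16.5 to P3 (slope -0.43 ± 0.13, limma, adjusted p = 0.104). At P0, NSC had 26.2 TPM and BP 67.3 TPM, and at P1 NSC had 17.9 TPM and NBN 16.8 TPM. With 1 library per stage these pairs carry no test.

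Crabp2 (chr3:87948666-87953376) was the most abundant of the 9 genes at E10.5 and had the steepest fall. Its NSC means were 835 TPM at E10.5, 486 at E11.5 and 52.1 at E13.5, then 0 at E15.5 and E17.5, 9.18 at E18.5, 0 at P0, then 0.263 at P1. The E18.5 and P1 values came from 1 cell each. At E10.5, 82 cells of 88 held it, and the 59 cells of E11.5 and 68 of E13.5 included 42 and 19 with it. None of the 86 cells of E15.5 did, 0 of 86, which by the same limit of 3 cells allows a detected share of up to 3.49%. Crabp2 fell by 0.97 ± 0.19 log2 units per day in NSC (limma, n = 8 libraries, adjusted p = 0.0180), rank 1 among the 14072 slopes tested, ordered from the steepest fall. Unlike Hmga2 it was not higher in profile cells at E11.5, where they averaged 308 TPM and the other cells 637 TPM. At E13.5 these were 62.6 and 42.8 TPM.

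Crabp2 was also high in the youngest BP only. The BP means were 372 TPM at E12.5 (44 of 72 cells), 57.9 at E14.5 (8 of 45), 0.336 at E16.5 (1 of 89) and 0 at E18.5 and P0. The BP slope, -1.31 ± 0.33, did not pass over all genes (limma, adjusted p = 0.722; unadjusted p = 0.00105), nor did any other gene (0% of genes tested). In NBN, Crabp2 was at or below 0.334 TPM at E16.5, E18.5 and P1 and 138 TPM at P3, where 7 of 40 cells held it. The 14 cells with meningeal markers gave 85.6% of the sum at P3. None of the 7 cells was left when cells with markers of other types were left out. As 36 of the 40 cells held such markers, too few remained for this absence to be informative. The NBN slope of 1.02 ± 0.42 did not pass (limma, adjusted p = 0.198) and was -0.045 without the P3 library. Stra6 and Aldh1a2, genes of retinoid uptake and retinoic acid synthesis, were also highest in that library, at 63.7 and 104.9 TPM.

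Crabp1 (chr9:54764748-54773110) rested on few cells throughout. Its NSC means were 184 TPM at E10.5, 123 at E11.5, 2.65 at E13.5, 8.90 at E15.5, 2.63 at E17.5 and 0 in the 3 older libraries. At E10.5 it was in 26 of 88 cells, and 3 cells with meningeal markers averaged 4201 TPM and gave 77.9% of the sum, while the other 85 averaged 42.0 TPM. At E11.5 it was in 2 of 59 cells, both with meningeal markers. The meningeal list of 7 genes summed to 20.5 and 10.0 TPM in these libraries, with 1 and 3 of its genes at 0. Crabp1 fell by 0.75 ± 0.16 per day (limma, n = 8 libraries, adjusted p = 0.0284), rank 2 of 14072. Without cells holding markers of other types the slope was -0.33 ± 0.14 and did not pass (limma, adjusted p = 0.345). BP held Crabp1 at 11.2, 76.1, 13.7, 2.69 and 1.86 TPM from E12.5 to P0, highest at E14.5 in 8 of 45 cells. Only 1 of those cells also held Crabp2.

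**Figure D3:**
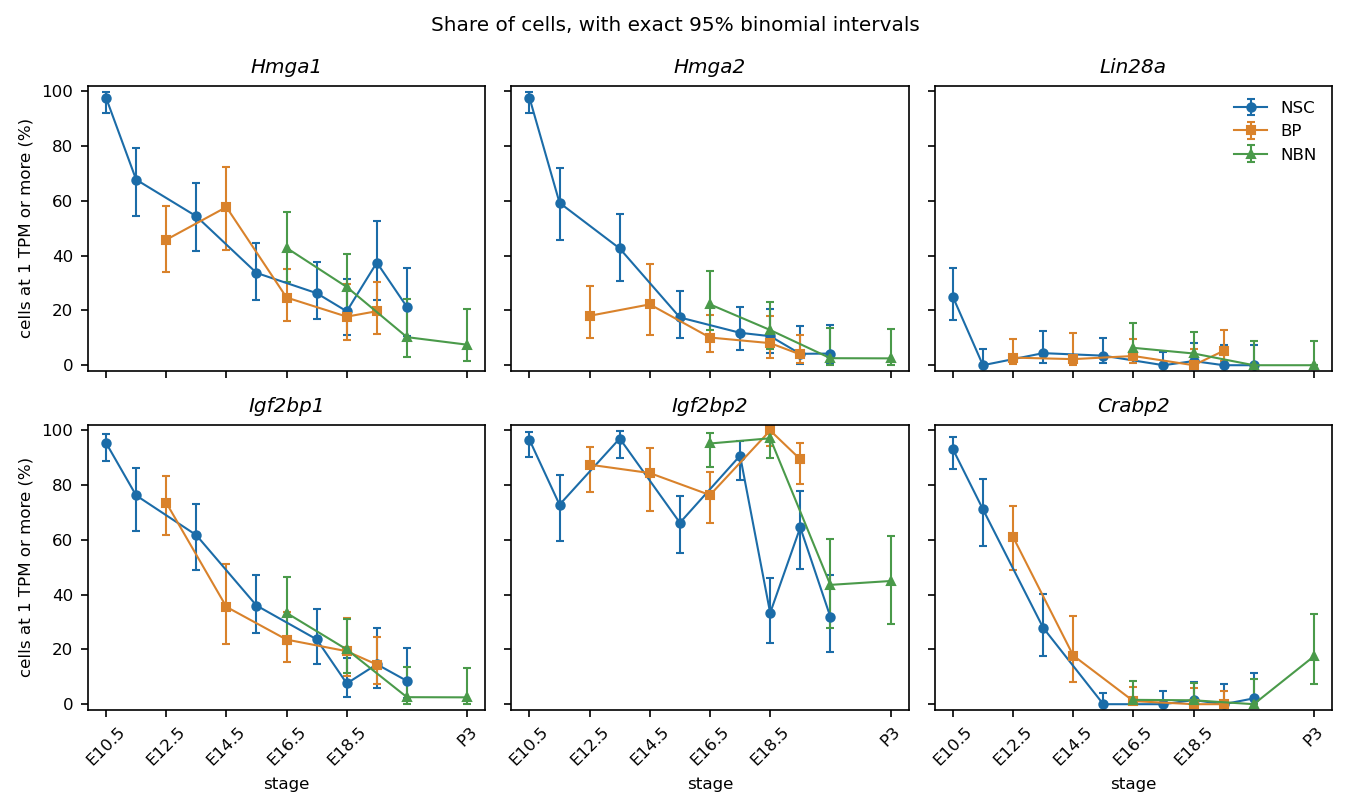
Share of cells at 1 TPM or more for 6 of the genes, by stage, in NSC (circles), BP (squares) and NBN (triangles), with exact 95% binomial intervals that cover counting error only. In NSC the shares of Hmga1, Hmga2, Igf2bp1 and Crabp2 are above 90% at E10.5 and lower at each of the next 3 stages.

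Across the set, 6 of the 8 genes that passed the filter on low values fell with age in NSC in the limma test (adjusted p under 0.05): Crabp2, Crabp1, Hmga2, Lin28b, Hmga1 and Igf2bp1. Over all 14072 genes tested 0.242% fell and 1.12% rose. The genes were chosen with earlier results of these libraries known, so the count describes them and is not independent evidence. The calls depended on single libraries more than the slopes did. Without NSC E10.5, 0 of 8 passed (limma, adjusted p 0.0956 to 0.676), and 7 genes in all fell instead of 34. All 8 slopes were still negative there, for example -0.53 for Hmga2, -0.34 for Hmga1, -0.36 for Igf2bp1 and -0.87 for Crabp2. Igf2bp1 lost its call in 14 of 17 fits that left out 1 library each, with slopes from -0.48 to -0.32. Without NSC E11.5, Hmga1, Hmga2 and Lin28b passed, and without NSC P0 the same 3 genes passed. When early (E10.5, E11.5 and E13.5) and late NSC libraries (E17.5, E18.5, P0 and P1) were set against each other, all late means lay below all early means for 7 of the 9 genes, against 4.06% of genes tested. The exceptions were Igf2bp3 and Lin28a, and for Crabp1 the nearest pair, 2.65 and 2.63 TPM, rested on 1 cell each. The largest differences were 7.20 ± 1.14 log2 units lower for Crabp2 and 4.97 ± 0.79 lower for Hmga2, each with an adjusted p of 0.0538 in limma. None of the 8 passed, and 0.00711% of all genes passed as lower. An unadjusted p under 0.05 in limma was seen for 7 of the 8 and for 1459 of all 14072 genes.

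**Figure D4:**
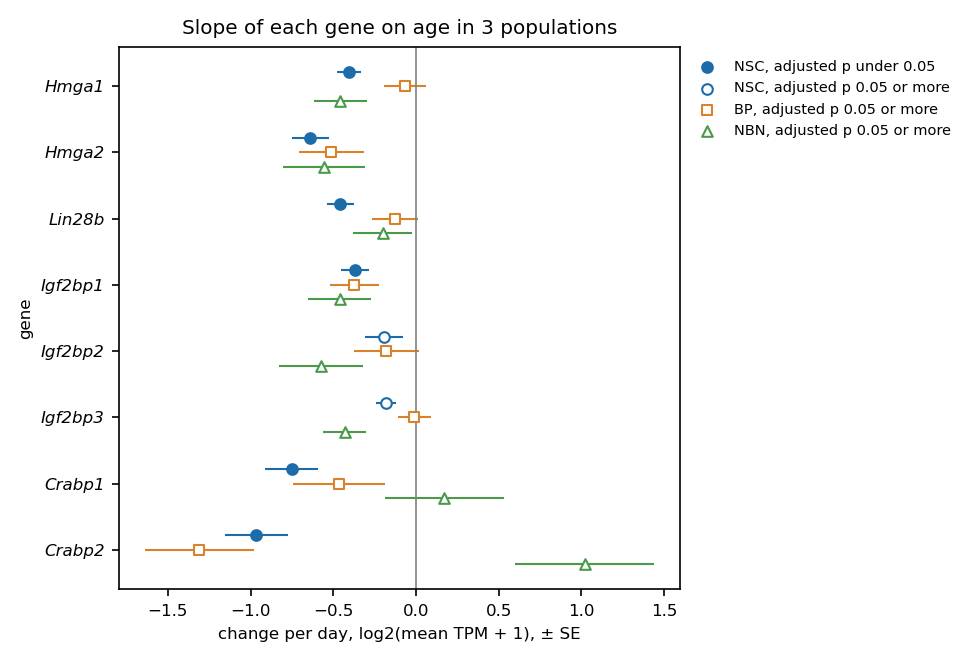
Slope of log2(mean TPM + 1) on age, per day, with its SE, for the 8 tested genes in NSC (circles, 8 libraries), BP (squares, 5 libraries) and NBN (triangles, 4 libraries); filled symbols passed at an adjusted p under 0.05. The 6 filled symbols are all NSC slopes, and the intervals of BP and NBN are wider.

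In the other populations none of the 8 genes passed. In BP all 8 slopes were negative and 3 had an unadjusted p under 0.05 in limma, as had 512 of all 14072 genes. In NBN 6 of 8 were negative, and 6 had an unadjusted p under 0.05 in limma, as had 2769 of all 14072 genes. The 2 groups of 6 differ: Crabp2, which rose, had such a p, and Lin28b, which was negative, did not. The median NBN slope over all genes was -0.12. At an adjusted p under 0.05 in limma, 0.334% of all genes fell and 0.114% rose. Hmga1 had an NBN slope of -0.46 ± 0.16 (limma, adjusted p = 0.147). It was 61.7 TPM at NBN E16.5, 10.9 at E18.5, 3.05 at P1 and 9.91 at P3, and none of the P3 level came from cells free of other markers. Without the cells holding markers of other types its slope was -0.92 ± 0.14 and passed (limma, adjusted p = 0.00291). In that setting 20.6% of all genes fell in NBN and only 4 P3 cells were left, so the call is close to the background. No difference of slopes between BP and NSC passed among the 8 genes, and 0.00711% of all genes passed as lower. An unadjusted p under 0.05 in limma was seen for 1 of the 8 and for 556 of all 14072 genes. For levels at the same age, none of the 8 passed between BP and NSC, where 0.448% of all genes passed as lower. There 1 of the 8 and 1899 of all 14072 genes had an unadjusted p under 0.05 in limma. None of the 8 passed between NBN and BP, where 0.0142% of all genes passed as lower. There 0 of the 8 and 1283 of all genes had an unadjusted p under 0.05 in limma. A slope that passed in NSC and not in BP is therefore not shown to differ between them.

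Single cells of E10.5 held most of the set at once. The median number of the 9 genes at 1 TPM or more per cell was 7 at NSC E10.5, 5 at E11.5, 4 at E13.5, 3 at E15.5 and E17.5 and 2 from E18.5 on. E10.5 had 87 cells of 88 with 5 or more of them, E11.5 had 38 of its 59 and E13.5 had 27 of its 68. Only 7 such cells were left at E15.5, 4 at E17.5, and 0 in the 3 oldest NSC libraries. Among BP cells, 34 of the 72 from E12.5, 14 of the 45 from E14.5 and 7 of the 89 from E16.5 held 5 or more. Hmga1 and Hmga2 were together in 84 of 88 cells at E10.5 and in 26 of 59 at E11.5, where their levels had a Spearman correlation of 0.40 over cells. At NSC E17.5 only 2 of 76 cells held both, while 20 held Hmga1 and 9 Hmga2. Cells of 1 library share its capture and depth, so these counts are descriptions.

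Of 16 tested genes of the HMG family and let-7 pathway, other than the 9, none passed with age in NSC (0.242% of all genes fell and 1.12% rose, so few calls are to be had in any list of this size), with a median slope of -0.02 against 0.01 over all genes tested. Hmgb2, a chromatin protein of the same broad HMG class, was 527 TPM at E10.5 and 394 at P1. Trim71, itself a let-7 target of early embryos, was 28.5 TPM at NSC E10.5, 15.4 at E11.5 and at or below 1.20 TPM in all other libraries, and was not tested. Among 21 tested genes known as let-7 targets in other tissues, 1 rose and 0 fell, beside the same shares over all genes. The riser was Cdk6, a cell cycle kinase, which rose by 0.39 ± 0.09 per day (limma, adjusted p = 0.0400).

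Of 14 tested retinoic acid pathway genes 1 rose and 0 fell with age in NSC, where 0.242% of all genes fell and 1.12% rose. It was Fabp7, a fatty acid carrier of the same protein family as the Crabp genes and a radial glia marker, at 0.63 ± 0.09 per day (limma, adjusted p = 0.00300). None of 18 IGF and Igf2bp partner genes passed. Igf2 itself was at or below 3.63 TPM in every NSC and BP library. Of 10 tested early progenitor genes outside the set 2 fell: Sall4, a pluripotency factor, by 0.56 ± 0.06 (adjusted p = 2.58e-04), and Wfdc2 by 0.63 ± 0.11 (adjusted p = 0.00827, both limma). This list was also chosen with earlier results of these data known, so the count is not independent evidence. Sall4 went from 42.0 TPM at E10.5 to 4.18 at E15.5 and 0.0248 at E17.5.

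For each tested member the 5 genes most like it over the 17 libraries were taken, by Pearson correlation of log2(mean TPM + 1). Only named genes reaching 10 TPM in a library were eligible, and the 5 were partly shared between members. Hmga2 was closest to Eif5a (r = 0.88) and Sall4 (r = 0.88), Lin28b to Aldh8a1, Wnt8b (r = 0.90 each) and Sall4 (r = 0.88), and Snrpf was among the genes closest to Hmga1 (r = 0.88). Igf2bp1 was closest to Pkm (r = 0.88), Igf2bp2 to Plekha8 (r = 0.86), Igf2bp3 to Lysmd3 (r = 0.93), Crabp1 to Rpl10-ps3 (r = 0.84) and Crabp2 to Lsr (r = 0.87). Lsr, Aldh8a1, Pkm and Sall4 are also among the 34 genes that fell in NSC. These correlations share the same 17 libraries and are descriptions.

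The let-7 matches were also counted among the other genes tested. Of 13095 tested genes outside the set with an annotated 3′ UTR, 10.5% held a match. A match was in 5 of the 25 that fell with age in NSC (20%) and in 13 of the 153 that rose (8.50%). Their median UTR lengths were 722 and 1495 bases, and the median ran from 1122 with 0 matches to 4899 with 3 or more. The shares and slopes given here were not matched for UTR length. The median NSC slope was 0.01 log2 units per day for genes with 0 or 1 matches, -0.01 for 2 matches and -0.02 for the 23 genes with 3 or more, of which none passed in either direction. The slopes of Hmga2, Lin28b and Igf2bp1, with 4 matches each, were -0.64, -0.46 and -0.37. Crabp1 and Crabp2, with no match, had slopes of -0.75 and -0.97, and that of Crabp1 was -0.33 without the cells holding markers of other types.

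**Figure D5:**
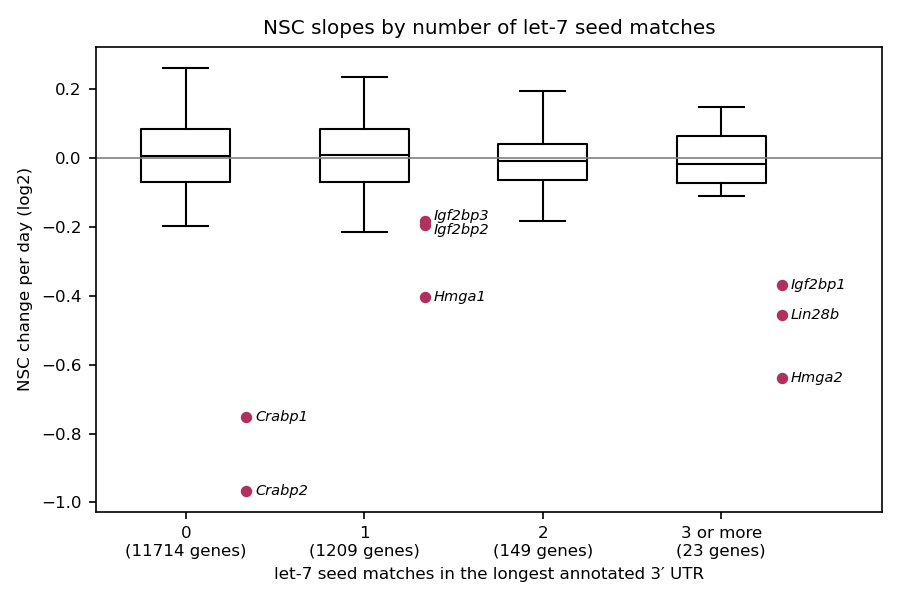
NSC slope per day (log2) by number of let-7 seed matches in the longest annotated 3′ UTR. Boxes show quartiles, whiskers the 5th to 95th percentiles, of tested genes outside the set, and points the 8 tested members; the boxes lie around 0 in all 4 classes, and the points lie below 0 in the classes with 0, with 1 and with 3 or more matches.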

How the data were processed

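The deposited files hold TPM per gene and cell, 1 file per library, in which each cell's column is scaled to the same total. Transcripts were quantified with kallisto 0.43.0, and GRCm38.p2 and mm10 are named as builds, per the submitters' processing notes. In 7 near-empty cells the deposited values are whole numbers, recorded as a score whose making by the authors is not given in the sources used here, and kept on the same scale. TPM keep no depth, so precision is given by cells per library (39 to 89) and exact (Clopper-Pearson) 95% intervals; where 0 cells held a gene, the limit is 3 cells.

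Cells are not replicates. Each library gave 1 value per gene, log2(mean TPM over cells + 1). Folds of weakly expressed genes come out too small on this scale. Testing took the 14072 genes whose mean reached 1 TPM in at least 4 of 17 libraries, 8 of the 9 members among them. Linear models were fitted in limma 3.58.1 (R 4.3.3; eBayes with trend, two-sided, Benjamini-Hochberg over all genes, threshold 0.05) on all 17 libraries with an intercept and age slope per population, or with population and a common slope for levels. Age is the embryonic day, or after birth 18.5 plus the age the labels state, so that P0, P1 and P3 stand at 19.5, 20.5 and 22.5. p-values measure spread between libraries around the fit, which may be technical. The 7 fits share libraries. Python 3.11.15, pandas 2.3.3, NumPy 2.4.6 and SciPy 1.17.1 read the files. The fit was tested on simulated slopes.

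Members, marker lists and pathway lists were chosen with earlier results of these data known. All 9 members are named, list genes that passed are named, and the choice of any other gene followed a look at its level. Alternatives changed the pseudocount, filter, averaging, scaling, cells kept, age term and libraries. One item withheld for evaluation is not reported here.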

Additional observations from a re-analysis of the deposited data

Results flagged for a closer look

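In 5 of 27 groups of 4 or 5 libraries, the highest library lay apart from the others by Dixon's test at 95%. Chance flags about 1 group in 20 when values are normally distributed. That rate cannot be set beside the count here, because some groups lay at the floor. No late NSC library but E17.5 held any Crabp1, so any level there would have been flagged. The flags are therefore descriptions. Hmga2 at NSC P0 (16.4 TPM) stood above the other late NSC libraries and rested on 2 cells. Crabp1 at NSC E17.5 (2.63 TPM) and Crabp2 at NSC E18.5 (9.18 TPM) stood above the other late NSC libraries and rested on 1 cell each. Lin28b at BP E12.5 (3.24 TPM) stood above the later BP libraries. Crabp2 at NBN P3 (138 TPM) stood above the other NBN libraries, in cells that hold markers of other types, as did 36 of the 40 cells of that library.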

How the results depend on the processing

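The number of members that passed was 6 for the NSC slope. In that fit 0.242% of all genes fell. It was 3 with no filter on low values (0.166% of all genes fell) and 3 without cells holding markers of other types (0.171%). When single libraries were left out it ranged from 0 to 6, and 0.0497% to 0.419% of all genes fell. For the NBN slope it was 0, and 1 (Hmga1) with trimmed means (3.78% of all genes fell) and without cells holding other markers (20.6%). Between BP and NSC it was 0, and 1 with NSC cells of a stem cell profile only (2.61% of all genes lower). Between late and early NSC it was 0 (0.00711% of all genes lower), but 2 with those cells only (0.0711%). It was 1 with log2 values averaged over cells (0.0213%) and 1 without cells holding other markers (0.00711%). When single libraries were left out it ran from 0 to 2, with 0 to 0.0497% of all genes lower. The NBN slope of Crabp2, 1.02, reversed to -0.029 without cells holding other markers, and ranged from -0.045 without NBN P3 to 1.68 over the libraries left out. The cause was not tested. No paired analysis was possible because the numbers in the cell titles count cells within a library and each library gives 1 value. With stage as a factor in place of the age slope, 0 of 8 passed between BP and NSC and 0 of 8 between NBN and BP. Of the ages at which a gene stayed under 50% of its highest level, 34 were the same under other averages or cells and 13 moved. Cases that never stayed under 50% in either setting compared were not counted. Hmga1 in BP was such a case: not reached with mean TPM, and E16.5 with trimmed means. The count also includes log2 averages, on which 50% is a different threshold. With 1 library per stage, no difference between neighbouring stages could be tested, and the few cells behind late values of Hmga2, Igf2bp1, Crabp1 and Crabp2 limit them.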
